A study of Acipenser ruthenus with 35 samples.

Results

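Among the transcripts of sterlet (Acipenser ruthenus) oocytes, 37 had their highest share at the animal end in small oocytes and at the vegetal end in big oocytes. They were chosen from 49027 transcripts, of which 23230 had a scaled total of at least 50 in both stages. A scaled count is the count of a transcript divided by the size factor of its library, and the scaled total is its sum over the 5 sections of an oocyte, A (extreme animal) to E (extreme vegetal). The share of a section is its percentage of that total, averaged over the 3 oocytes of a stage with all 5 sections. Members had A as the highest share in small oocytes, at 27% or more, with E at 18% or less, and the opposite in big oocytes, with E highest at 27% or more and A at 18% or less. The shares therefore chose the members and are given as a description, with no test.

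The small oocytes, 1320 to 1500 µm across, were in early vitellogenesis and the big ones, 1920 to 2100 µm across, in advanced vitellogenesis, with no treatment given in the labels. Each oocyte was frozen along its animal-vegetal axis and cut into slices that were shared equally, in order, among 5 tubes, and each tube gave 1 library (TOMO-Seq). There were 17 libraries from big oocytes 1, 2, 3 and 11 and 18 from small oocytes 5, 6, 7 and 8. Oocyte 11 contributed A and B, and oocyte 7 contributed C, D and E. By the labels, all big oocytes came from 1 female and all small oocytes from another, so the stage cannot be told apart from the female. More input RNA went into the libraries of big oocytes, according to the study's methods, and this cannot be told apart from the stage either. P-values below measure the spread among oocytes of 1 female per stage.

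An oocyte that grows in the ovary stores maternal RNA, and part of it is sorted along the axis. In frog and fish oocytes the vegetal side is known for RNAs of the germ plasm, the cytoplasm that sets aside the germ cells, while the nucleus comes to lie towards the animal pole of the growing oocyte. By microscopy in the study, the nucleus of the sterlet oocyte was central at the small stage and in the animal hemisphere at the big stage. RNA can reach one end by transport, by anchoring or by loss elsewhere. Scaled section counts record only the level of a transcript relative to the others in that section at each stage, and not the amount of RNA there.

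Libraries held 1816470 to 11348306 counts in big and 1653598 to 6817459 in small oocytes. The axis markers of the study had the labelled order, with exd2, of a 3'-5' exonuclease domain protein, at 90.5% in A of small and 92.6% in A of big oocytes. The other animal marker, slc44a3 (a choline transporter-like protein), had 82.9% and 81.1% in A. The vegetal marker dnd1, whose product binds RNA and is required in germ cells, had 31.9% in E of small and 53.1% in E of big oocytes. Oocytes entered the study by marker gradients, so this order was a condition of entry. The identifiers of the transcripts come from the assembly and 0 of 49027 matched the RefSeq table of 80041 genes, and the study's annotation of the assembly was not used here, so the members are given by identifier alone, and lists of pathways or of other cell types were not used.

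In small oocytes the median member had 31.3% of its scaled total in A (lowest 27.01%, highest 47.7%), 19.6% in B, 16.95% in C, 14.8% in D and 16.2% in E. In big oocytes the medians were 15.02% in A, 12.6% in B, 16.3% in C, 19.9% in D and 34.2% in E (lowest 27.6%, highest 64.1%). The excess thus sat in the outermost section at each stage, and the other sections differed much less from one another. Over all 23230 transcripts the section medians lay between 19.3% and 20.01%. Few members had an even slope: shares declined from A through to E in 4 members of small oocytes and increased from A through to E in 5 members of big oocytes. The lowest section was D in 21 members of small oocytes and B in 21 members of big oocytes, so the minimum most often lay 1 section in from the end: next to the vegetal end in small and next to the animal end in big oocytes. In small oocytes B was the next highest section after A in 22 members and C in 12. In big oocytes D came next after E in 26 members and C in 8. The rule fixes the highest section, and these orders were not counted over all transcripts, so they are a description.

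**Figure D1:**
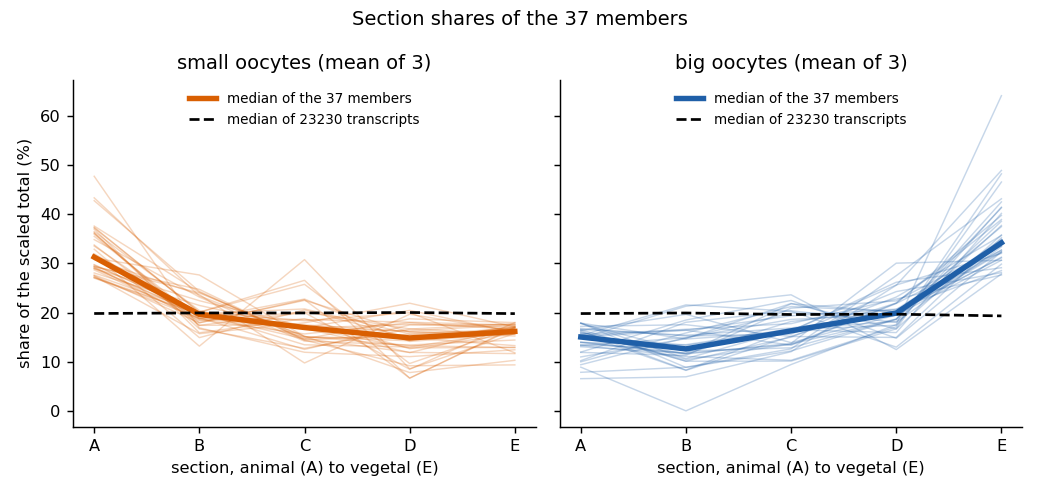
Share of the scaled total (vertical axis, percent) by section from A (animal) to E (vegetal) in small (left) and big (right) oocytes. Thin lines are the 37 members, thick lines their median and dashed lines the median of 23230 transcripts; the median member has 31.3% in A of small and 34.2% in E of big oocytes.

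The order of the ends was read in each oocyte as well. The median A share of the members was 30.7%, 35.5% and 31.0% in small oocytes 5, 6 and 8, and 13.7%, 14.0% and 14.9% in big oocytes 1, 2 and 3. The median E share was 15.1%, 14.5% and 16.5% in these small oocytes and 36.4%, 35.3% and 34.3% in these big oocytes. All 3 oocytes of a stage thus had close medians, which the limits on the mean shares of these same oocytes favour. Transcripts chosen without small oocyte 8 had medians there of 26.1% to 26.5% in A and 23.6% to 24.3% in E. Single members varied more: A was the highest section in all 3 small oocytes for 19 members, in 2 for 14 and in 1 for 4. At the vegetal end, E was highest in all 3 big oocytes for 26 members, in 2 for 10 and in 1 for 1. More counts lay behind this end, with a median of 149 in the 3 E libraries of big oocytes. The 3 A libraries of small oocytes had a median of 64. The A and E shares of the 3 oocytes did not overlap in 31 members of small and in 34 members of big oocytes. The limits on the mean shares favour these counts, which were not made over all transcripts, so they are a description. The median SD over oocytes was 6.32 percentage points for the A share in small and 4.83 for the E share in big oocytes (n = 3 each).

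**Figure D2:**
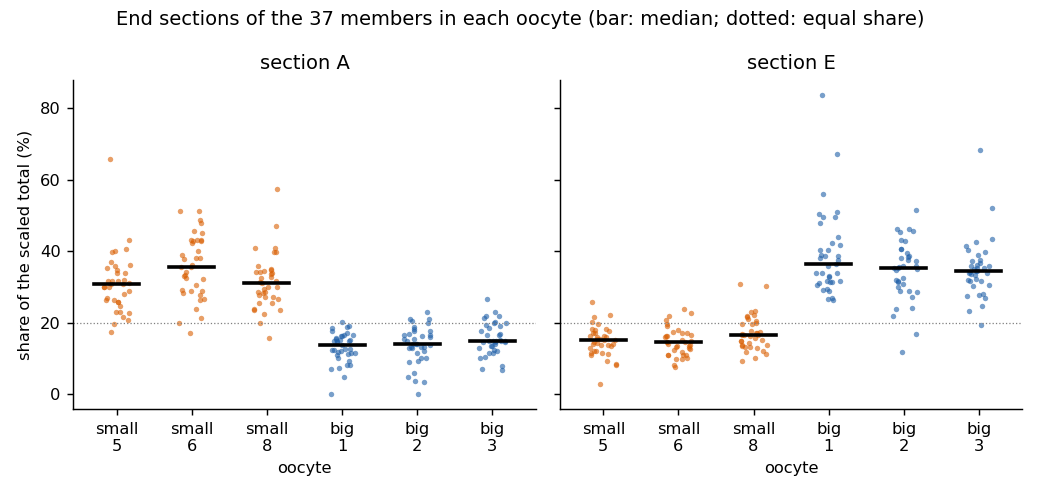
Share of the scaled total (percent) in section A (left) and E (right) for each of the 37 members in each complete oocyte, with small oocytes in orange and big in blue. Bars are medians, 30.7% to 35.5% for A in small and 34.3% to 36.4% for E in big oocytes, and the dotted line is an equal share.

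A switch of ends was rare among localized transcripts. By the same limits 666 transcripts were animal in small oocytes, and the members were 5.56% of them, while 397 (59.6%) were animal at both stages and 232 met neither limit in big oocytes. Of the 3455 transcripts that were vegetal in big oocytes, 675 (19.5%) were already vegetal in small ones and 1.07% were members. The mirrored switch, from vegetal in small to animal in big oocytes, was met by 4 transcripts. When the limits on the size of the shares were dropped, 1888 transcripts had A as the highest section in small and E in big oocytes, and the members were 1.96% of these. The limits cut through a continuum: among the members nearest to a limit were 1 with an A share of 27.01% and 1 with an E share of 17.97% in small oocytes, and just outside lay transcripts with an A share of 18.06% in big oocytes and an E share of 18.08% in small oocytes.

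Most members were transcripts of low abundance. The median scaled total of the 37 members was 88.7 in small and 149.3 in big oocytes, against 301.7 and 404.0 over all 23230 transcripts. The highest total of a member was 1069 in small and 1909 in big oocytes. These totals were scaled within each stage, so the values of small and big oocytes are not on one scale. The small total was under 100 in 24 members, where 18.4% of all transcripts were that low. In unscaled counts, the 3 A libraries of small oocytes together held between 38 and 979 counts of a member (median 64), and the 3 E libraries of big oocytes between 67 and 2062 (median 149). The spread followed this depth, since the A share in small oocytes had a median SD of 7.15 percentage points in the 24 members under 100 and 3.504 in the other 13. Whether the limits on shares favour transcripts with few counts was not tested. The members belonged to 37 different assembled genes, and 13 of them (35.1%) came from the genome-guided part of the assembly, against 32.2% of all 23230 transcripts.

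The member with the highest sum of its A share in small and E share in big oocytes was TRINITY_GG_9901_c0_g1_i1_1. Its E share was 83.7%, 40.6% and 68.2% in big oocytes 1, 2 and 3, or 64.1% ± 21.8 (SD, n = 3), and it had no counts in B of any of them. Its A share was 34.7%, 42.9% and 15.7% in small oocytes 5, 6 and 8. These values rest on 39 counts in the 3 A libraries and 127 in the 3 E libraries, and oocyte 8 did not have A on top. Next came TRINITY_GG_5085_c2_g1_i3_2, with E shares of 55.9%, 46.1% and 42.6% in big and A shares of 28.8%, 43.0% and 23.5% in small oocytes. In small oocyte 8 its share was higher in C, at 39.2%, than in A. Both transcripts head the ranking with the low counts at which shares are least certain.

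The 6 members with scaled totals of at least 200 in both stages, picked after their values had been seen, had narrower spreads. The most abundant was TRINITY_DN53404_c1_g1_i1_1. Its A share was 37.1%, 38.0% and 34.5% in small oocytes 5, 6 and 8, and 10.02%, 10.2% and 10.4% in big oocytes 1, 2 and 3. Its E share was 13.6%, 13.0% and 13.2% in small and 31.3%, 34.6% and 34.3% in big oocytes. The stages were far apart at both ends and the oocytes of a stage nearly level. TRINITY_DN50119_c1_g3_i1_1 had A shares of 30.7%, 29.0% and 27.2% in small and E shares of 38.2%, 38.3% and 36.7% in big oocytes. It and TRINITY_DN53404_c1_g1_i1_1 were the 2 members that met the limits in every one of the 6 complete oocytes taken alone.

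The steepest vegetal profile among these 6 belonged to TRINITY_GG_43021_c1_g1_i1_1. Its E share was 49.4%, 45.3% and 52.1% in big oocytes, where A held 8.29%, 3.59% and 7.76%. In small oocytes its A share was 31.0%, 30.4% and 26.6%, close to its B share of 24.7% ± 2.38 (SD, n = 3), so that the small profile covered both animal sections. TRINITY_DN49743_c0_g2_i1_1 had A shares of 35.9%, 37.7% and 31.0% in small and E shares of 38.9%, 30.8% and 35.1% in big oocytes, with its lowest share in B of big oocytes (10.6% ± 1.07).

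TRINITY_DN49973_c3_g1_i3_1 had the strongest animal profile of the 6 in small oocytes and the flattest vegetal one in big oocytes. Its A share was 39.7%, 48.8% and 39.9% in small oocytes 5, 6 and 8. In big oocytes E held 28.9%, 27.1% and 27.6%, C held 32.7%, 17.5% and 20.7%, and D was the lowest section at 12.5% ± 3.13 (SD, n = 3). In oocyte 1 its C share was therefore above its E share. TRINITY_DN53441_c1_g1_i2_1 had A shares of 31.7%, 34.2% and 30.001% in small and E shares of 30.5%, 31.3% and 31.5% in big oocytes, the narrowest spread at the vegetal end (SD 0.526) of the 6.

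**Figure D3:**
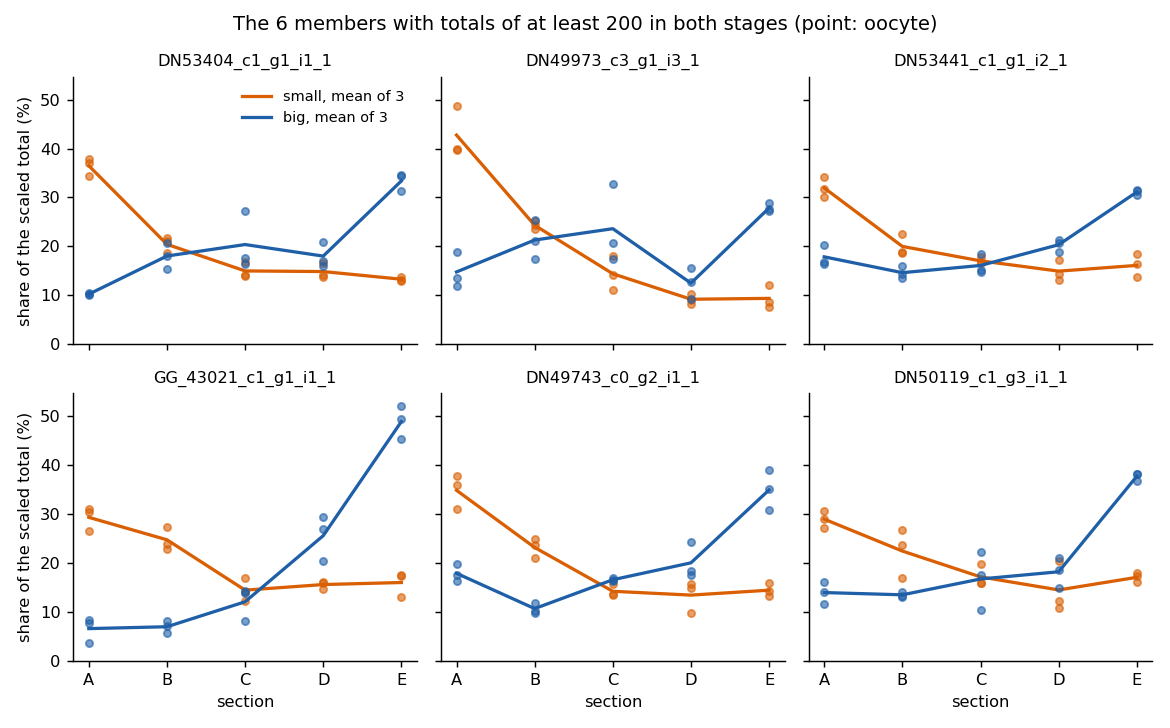
Share of the scaled total (percent) by section, A to E, for the 6 members with totals of at least 200 in both stages, small oocytes in orange and big in blue. Points are single oocytes and lines the mean of 3; the lines cross between the ends in each panel, and TRINITY_DN49973_c3_g1_i3_1 has a peak in C besides E in big oocytes.

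Of these 6, 3 had another isoform of the same assembled gene above the minimum total, and the isoforms differed in how far they switched ends. The isoform TRINITY_DN49973_c3_g1_i5_1 had its highest share in E at both stages, with 24.3% ± 2.07 in E and 17.3% ± 1.69 in A of small oocytes and 49.8% ± 0.885 in E and 2.75% ± 1.02 in A of big oocytes (SD, n = 3). Its A shares in small oocytes, 19.1%, 15.8% and 16.9%, lay below all those of the member from the same assembled gene. The isoform TRINITY_DN53404_c1_g1_i2_1 had 24.9% ± 4.15 in A of small and 43.5% ± 6.13 in E of big oocytes, an intermediate animal share and a higher vegetal one than the member. The isoform TRINITY_DN53441_c1_g1_i6_1 had 32.3% ± 1.38 in A and 18.2% ± 1.12 in E of small oocytes, 18.1% ± 3.04 in A and 35.6% ± 1.66 in E of big oocytes, and missed the limits by a margin within its SD. kallisto divides reads shared by isoforms by estimate, so their separate values are uncertain where their sequence is the same. With counts summed over isoforms, 37 assembled genes met the limits, and these were the 37 genes of the members.

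In big oocytes 10 members had less in D than in C, like TRINITY_DN49973_c3_g1_i3_1, while the other 27 increased or stayed level from C to D. The 10 had medians of 20.8% in C, 16.3% in D and 32.6% in E of big oocytes, and 36.3% in A and 13.1% in E of small oocytes. The 27 had medians of 15.2% in C, 20.6% in D and 35.7% in E of big oocytes, and 29.7% in A and 16.8% in E of small oocytes. The 10 thus had the stronger animal profile in small oocytes. This grouping was made after the shares had been seen and was not tested.

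The tests of section differences used the same contrasts as the selection, and nothing is read from them about the members. With edgeR's quasi-likelihood test at an adjusted p under 0.1, a section difference was called for 35 members in big oocytes (54.1% of all transcripts tested) and for 19 members in small oocytes (15.1%). A vegetal gradient, defined as the average log2 level of the vegetal sections D and E less that of the animal sections A and B, was called for 33 members in big oocytes (27.6%), and an animal gradient for 16 members in small oocytes (4.93%). The interaction of stage and section was called for 34 members (28.9%), and a more vegetal gradient in big than in small oocytes for 36 (18.7%). The gradient difference (log2) of members ran from 0.82 to 5.69 with a median of 1.77. The exception was TRINITY_DN44608_c1_g2_i1_1, singled out after the test, whose A share was 65.8% in small oocyte 5 but 21.3% and 23.8% in oocytes 6 and 8. Its total in oocyte 5 was 225.1 against 51.2 and 52.8 in the others, so 1 oocyte carried its animal profile. In small oocytes 6 of 6 members with totals of at least 200 were called and 8 of 24 with a small total under 100. Over transcripts of all depths the share called was 15.1%, and it was not counted at matched depth.

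A share at one end can shift because the level of that end changed or because the rest of the oocyte changed. Levels were therefore compared between stages on one scale, with all 35 libraries scaled jointly. The log2 ratio of big to small oocytes had a median over members of -1.10 in A (range -2.94 to 0.56), -0.47 in B, 0.18 in C, 0.64 in D and 1.322 in E (range -0.27 to 2.91). The median over all 23230 transcripts was between -0.01 and 0.00 in every section, and with scaling by library totals it was -0.16 in E, where the members' median was 1.16. The members' medians thus ran in order along the axis, from lower in A to higher in E. Single members did not all keep this order, such as TRINITY_DN53404_c1_g1_i1_1 with 0.86 in C and 0.71 in D. Section A was at least 1.5-fold lower in big oocytes for 27 members (14.8% of all transcripts) and E at least 1.5-fold higher for 32 (17.6%). Both applied to 22 members (3.92%), A alone to 5 (10.9%), E alone to 10 (13.7%) and neither to 0 (71.5%). The selection on shares favours such ratios, so these counts are a description. Section D was at least 1.5-fold higher in 20 members (13.3%) and B at least 1.5-fold lower in 12 (14.3%), while the middle section C was lower in 8 (14.0%) and higher in 10 (9.60%).

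Single members on this joint scale give examples of each combination. In the most abundant member, TRINITY_DN53404_c1_g1_i1_1, the level in A was 519.8, 445.7 and 374.8 in small oocytes 5, 6 and 8 and 148.1, 183.9 and 171.0 in big oocytes 1, 2 and 3. Its level in E was 191.5, 152.7 and 143.5 in the small and 468.2, 626.7 and 567.7 in the big oocytes. Neither end overlapped between the stages. In TRINITY_DN50119_c1_g3_i1_1 the log2 ratio was -1.10 in A and 1.07 in E, nearly equal and opposite. TRINITY_DN48082_c0_g1_i1_1 was at the other extreme, with 33.5, 27.5 and 31.8 in A of big and 10.7, 40.5 and 10.8 in A of small oocytes, so that A overlapped. Its animal profile was carried by small oocyte 6 alone, since B was higher than A in oocyte 5 (13.1) and D in oocyte 8 (12.1). Its level in E was 86.5, 117.0 and 69.4 in big and 9.42, 12.3 and 12.0 in small oocytes. In TRINITY_DN49859_c0_g1_i1_1 the ends were reversed in this respect, with 9.51, 13.8 and 10.9 in A of big against 35.4, 93.5 and 37.7 in small oocytes, and overlapping levels in E (24.9, 27.7 and 23.9 against 29.8, 40.0 and 23.1).

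**Figure D4:**
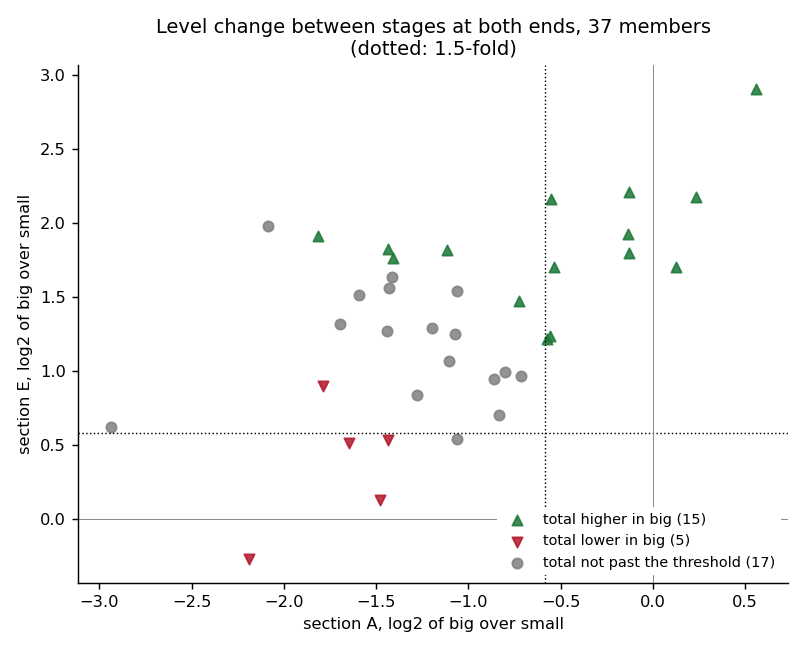
Log2 ratio of big to small oocytes (mean of 3 each, joint scaling, pseudocount 1) in section A (horizontal) and section E (vertical) for the 37 members, marked by the result of the test of totals. Dotted lines mark 1.5-fold; 22 members lie beyond both, 5 beyond the line for A only and 10 beyond the line for E only.

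The total per oocyte entered the choice of members only through its minimum. It was the sum of the jointly scaled counts of the 5 sections, for each complete oocyte, and was tested with edgeR over 33139 transcripts. Its sections include A of small and E of big oocytes, where the rule chose high shares. The test is thus not independent of the selection, and the counts of members called are a description. Being scaled, the total describes abundance relative to the other transcripts and not the amount of RNA in an oocyte. The total was higher in big oocytes for 15 members, 40.5% of them against 28.8% of all transcripts tested. It was lower for 5 members, 13.5% against 28.8%. The remaining 17 members did not pass the threshold. The transcripts tested needed a mean total over 20 in only 1 stage, where members needed at least 50 in both, so the sets are unlike. The log2 ratio of totals had a median of 0.13 over members (range -1.38 to 1.54) and 0.00 over all transcripts tested. Without overlap between the 3 oocytes of each stage, 14 members were higher (32.3% of all transcripts) and 5 lower (27.2%). Of the 20 calls, 13 were kept under every alternative run for them. The number of members called lower was 3 without big oocyte 3 (25.8% of all transcripts tested) and 3 without small oocyte 6 (26.1%).

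Totals and ends went together by arithmetic, since a total is the sum of its sections. All 10 members with a higher E alone had a total that rose, and 4 of the 5 with a lower A alone had a total that fell. Of the 22 members with both, 16 had no call, 5 rose and 1 fell, with a median log2 ratio of 0.05.

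The largest increase of the total was that of TRINITY_DN48082_c0_g1_i1_1, with 179.8, 227.4 and 171.8 in big oocytes 1, 2 and 3, against 55.001, 84.6 and 54.1 for small oocytes 5, 6 and 8. The groups did not overlap, and the log2 ratio was 1.54 ± 0.18 (SE, edgeR adjusted p = 3.56e-05). TRINITY_GG_12387_c5_g1_i1_1 followed, with 146.3, 165.1 and 151.1 in big and 48.7, 65.6 and 60.5 in small oocytes (log2 ratio 1.36 ± 0.15, edgeR adjusted p = 1.26e-05). In both, the E level of every big oocyte was above that of every small one, and the A level overlapped between the stages.

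The largest decrease was that of TRINITY_DN49859_c0_g1_i1_1, with 75.2, 78.5 and 61.5 in big and 163.9, 246.2 and 138.0 in small oocytes (log2 ratio -1.38 ± 0.22, edgeR adjusted p = 0.000513). TRINITY_DN38190_c0_g1_i1_1 had 73.0, 63.6 and 64.5 in big and 92.0, 111.2 and 100.6 in small oocytes (log2 ratio -0.62 ± 0.15, edgeR adjusted p = 0.00399). These 2 members had their vegetal share in big oocytes together with a lower scaled total, which is relative to the other transcripts. Among the 6 members of high total, TRINITY_DN53404_c1_g1_i1_1 had 1492, 1809 and 1655 in big and 1402, 1174 and 1087 in small oocytes (log2 ratio 0.40 ± 0.11, edgeR adjusted p = 0.0137). TRINITY_GG_43021_c1_g1_i1_1 rose by 0.29 ± 0.09 on the log2 scale (edgeR adjusted p = 0.0182), a call lost with scaling by library totals (edgeR adjusted p = 0.30), and TRINITY_DN53441_c1_g1_i2_1 rose by 0.24 ± 0.06 (edgeR adjusted p = 0.00665). TRINITY_DN49743_c0_g2_i1_1 had a log2 ratio of 0.20 ± 0.09 (edgeR adjusted p = 0.0865), a call kept under 3 of 11 alternatives. TRINITY_DN50119_c1_g3_i1_1 and TRINITY_DN49973_c3_g1_i3_1 had log2 ratios of -0.10 ± 0.09 and -0.10 ± 0.08 and no call.

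To see whether the switch holds in oocytes that did not choose the transcripts, the rule was applied to 2 oocytes per stage and the chosen transcripts were read in the left-out pair, for 9 pairs. Each round chose 29 to 99 transcripts. In the left-out big oocyte, E was above A in 82.8% to 100% of them, with a median E share between 33.2% and 42.3%, where 47.8% to 48.8% of all transcripts had that order. In the left-out small oocyte, A was above E in 55.9% to 87.1%, against 49.4% to 51.2% of all transcripts. The lowest values came from small oocyte 8. When it was left out, A was above E in 55.9% to 58.3% of the chosen transcripts, which is near the background, and their median A share was 26.1% to 26.5% against an E share of 23.6% to 24.3%. When oocyte 5 or 6 was left out the order held in 73.9% to 87.1%. Both orders together held in 49.5% to 87.1% of the chosen transcripts and in 18.8% to 22.6% of all. The full limits were met again by 6 to 10 transcripts a round. How many of all transcripts met them in the left-out pairs was not counted, so nothing is read from this. In 8 of the 9 rounds more of the chosen transcripts held the vegetal order in the left-out pair than held the animal order. The rounds reuse the same oocytes and are not independent, so this count is a description. The unlike counts behind both ends were not separated from this.

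Oocytes 11 and 7 have incomplete series and took no part in the selection. In section A of big oocyte 11 the level of 30 members (81.1%) was below that of all 3 small oocytes, where 37.2% of all transcripts were. In section E of small oocyte 7 the level of 29 members (78.4%) was below that of all 3 big oocytes, where 39.6% of all transcripts were. Both comparisons were chosen after the data had been seen. Each rests on the library with the fewest counts of its stage, 1816470 in A of oocyte 11 and 1653598 in E of oocyte 7. Levels of members with few counts are least certain there. The values they are set against come from oocytes that took part in the selection. The rule chose members for high A shares in those small oocytes and high E shares in those big oocytes. This favours such counts, and such ratios to the means of those oocytes, so they are a description. In the inner sections, 14 members (37.8%) were below in B of oocyte 11, which is near the 35.6% of all transcripts. In C of oocyte 7, 18 members (48.6%) were below, against 34.8% of all transcripts. The median log2 ratio of A in oocyte 11 to the mean A of small oocytes was -1.29 over members and -0.02 over all transcripts. For TRINITY_DN53404_c1_g1_i1_1 the level in A of oocyte 11 was 132.9, beside 148.1 to 183.9 in the other big oocytes, and the level in E of oocyte 7 was 162.4, beside 143.5 to 191.5 in the other small ones.

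Within the partial oocytes the slopes were less clear. Section A of oocyte 11 and section E of oocyte 7, which enter these ratios, had the fewest counts of their stages. In oocyte 11, B was at least 1.5 times A in 15 members (14.0% of all transcripts), A at least 1.5 times B in 9 (15.2%), and the median log2 ratio of B to A was 0.42, beside -0.20, 0.07 and -0.13 in oocytes 1, 2 and 3. In oocyte 7, C was at least 1.5 times E in 6 members (11.1%), while E was at least 1.5 times C in 13 (13.7%). The median log2 ratio of C to E was -0.07, beside 0.19, 0.10 and 0.14 in oocytes 5, 6 and 8. D was at least 1.5 times E in 6 members (10.4%) and E at least 1.5 times D in 18 (12.3%). The median log2 ratio of D to E was -0.37, beside 0.14, -0.24 and -0.10 in oocytes 5, 6 and 8, and -0.01 over all transcripts in oocyte 7. In its median member oocyte 7 thus had more in E than in D, and nearly as much in C as in E. Its section A was not analysed here.

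**Figure D5:**
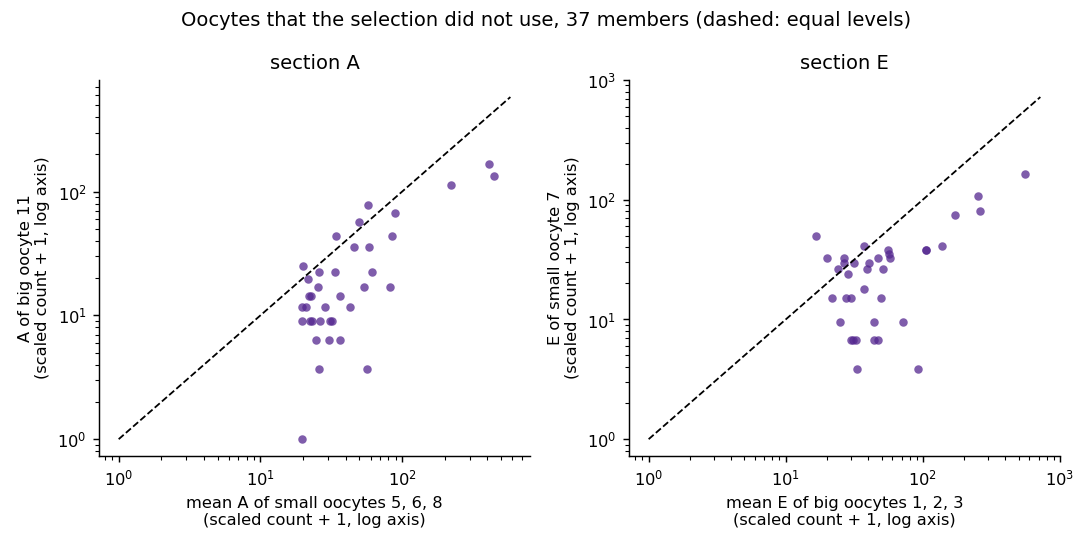
Jointly scaled count plus 1 on log axes for the 37 members: left, section A of big oocyte 11 against the mean of small oocytes 5, 6 and 8; right, section E of small oocyte 7 against the mean of big oocytes 1, 2 and 3. The dashed line marks equal levels, with 33 members below it on the left (51.5% of all transcripts) and 31 on the right (51.6%). The selection favours high values on both horizontal axes.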

How the data were processed

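Single oocytes were sectioned and each section was sequenced after depletion of ribosomal RNA. The authors trimmed the reads (Trimmomatic), discarded those of mitochondrial and ribosomal origin, and pseudoaligned the rest to an assembled transcriptome of the species with kallisto 0.43.1. Estimated counts were deposited for each transcript, all as whole numbers. The authors also deposited a scaled signal per stage, the counts divided by DESeq2 size factors (median of ratios over the libraries of that stage). Multiplying back gave whole counts for 100% of values (tolerance 1e-06). Another 2 tables of totals were not used. Scaling gives each section the same weight, so shares describe composition and not amounts of RNA.

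The members, the lists and the tests were chosen with earlier results of these data known. The deposited scaled counts gave the shares. Counts were tested with edgeR 4.0.16 in R 4.3.3 (robust quasi-likelihood, median-of-ratios scaling, mean total over 20 in at least 1 stage, or in the stage fitted, Benjamini-Hochberg adjustment, threshold 0.1), and the code was tested on simulated data. Since all sections of an oocyte are parts of 1 cell, fits within a stage held the oocyte as a block. Deviations from the group means correlated by 0.0711 in big and 0.0479 in small oocytes within an oocyte, and by -0.0260 and -0.0164 between oocytes. The interaction was fitted without the block, as in the study, and totals by stage only. Log ratios of levels used a pseudocount of 1. Alternatives were other scalings (TMM, library totals), DESeq2 1.42.0, other filters and limits, and leaving out each oocyte.

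Transcripts named in the text were the 2 with the highest sum of shares, the 2 largest rises and falls of the total without overlap, and the most abundant member. The others were picked after their values were seen.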

Additional observations from a re-analysis of the deposited data

Results flagged for a closer look

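In groups of 4 libraries, the highest or lowest library was compared with the gap to its neighbour (Dixon's criterion at 95%) for the named members and for the summed level of all members. There were 70 such sets and 9 stood out. The criterion marks about 1 in 20 by chance for normal values without selection. Here each set joined libraries of oocytes that chose the members with a library of a partial oocyte. Some members were also named for their values, and many counts were low. The 9 are therefore a list for a closer look and are not set against that rate.

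TRINITY_DN44608_c1_g2_i1_1 had a jointly scaled count of 266.3 in D of small oocyte 7, against 0 to 42.3 in the other small oocytes, and 34.6 in A of big oocyte 11, against 3.76 to 8.76. TRINITY_DN38190_c0_g1_i1_1 had 42.5 in A of big oocyte 11, against 8.76 to 13.0 in big oocytes 1, 2 and 3, and 30.9 in C of small oocyte 7, against 20.2 to 21.9. In both of these members the partial oocyte 11 thus had more in A than the big oocytes that chose them. TRINITY_GG_9901_c0_g1_i1_1 had 10.9 in A of big oocyte 3 and 0 in the other 3 libraries. TRINITY_DN49973_c3_g1_i3_1 had 175.4 in C of small oocyte 5, against 114.7 to 119.9. TRINITY_DN48082_c0_g1_i1_1 had 2.93 in D of small oocyte 7, against 10.9 to 12.1. TRINITY_DN50119_c1_g3_i1_1 had 37.03 in E of small oocyte 7, against 48.6 to 50.2. The summed level of the 37 members in B of big oocyte 1 was 223.7 CPM, against 299.6 to 314.1 CPM in the other 3 libraries. The causes were not tested.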

How the results depend on the processing

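The number of transcripts that met the rule depended on its limits: 91 with a minimum total of 20, 6 with 200, 4 with share limits of 30% and 15%, 162 with 25% and 20%, and 2 when every oocyte had to meet it alone. It was 26 with library totals (24 of them members), 31 with TMM (30 members) and 40 with joint scaling (35 members). Leaving out 1 oocyte gave 30 to 95, the highest without small oocyte 8 (27 members among the 95), and 9 members met the rule whichever of the 6 oocytes was left out. With library totals the median log2 ratio of B to A in oocyte 11 was 0.59 and that of C to E in oocyte 7 was 0.000186. The median change in E was 1.29 to 1.51 with 1 oocyte left out, the highest without small oocyte 8. With a filter at a total of 200, only 7 members entered the test of totals. Of these, 5 were higher (33.0% of all transcripts tested) and 0 lower (33.3%) in big oocytes. With 1 oocyte left out, 12 to 14 members were called higher (25.7% to 28.4% of all transcripts tested) and 3 to 6 lower (25.8% to 28.1%). For TRINITY_GG_9901_c0_g1_i1_1 the log2 ratio of totals ran from -0.55 to 0.0197, reversing without small oocyte 8. The oocyte block in the interaction fit gave 10451 in place of 9632 transcripts (34 members with and without it), and fits with no block gave 16549 in big oocytes (34 members) and 4523 in small oocytes (18 members). With library totals the interaction gradient was more vegetal for 4947 and more animal for 7400 transcripts, in place of 6221 and 5111, and more vegetal for 35 members. Shares of members with few counts are limited by depth, and counting errors were not modelled for them.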
